A study of Mus musculus with 6 samples.

Results

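The splicing factor genes described here were the 55 rows of the deposited table, of 55487 gene rows, whose mouse symbol names a heterogeneous nuclear ribonucleoprotein (the Hnrnp genes, 22 rows), a serine and arginine rich splicing factor (the Srsf genes, 11 rows), a subunit of splicing factor 3a or 3b (the Sf3a and Sf3b genes, 9 rows) or a small nuclear ribonucleoprotein polypeptide (the Snrp genes, 13 rows). Members were taken by symbol alone, with no measured value in the rule. Of the 55, GENCODE M21 gave 52 as protein-coding and 3 as processed pseudogenes. The data were bulk RNA-seq of 6 libraries, 3 per group. In the NP group, macrophages received nanoparticles at 200 µg/mL for 24 hours, with the treatment label PEMA, which the sources used here do not explain. The series title gives the particle material as poly(lactide-co-glycolide). In the PBS group the cells received the vehicle for the same time. Both groups were wild-type cells from female BALB/c mice of 6 to 12 weeks, differentiated from bone marrow for 8 days with 20% conditioned medium of L929 fibroblasts, and both had been exposed for 24 hours to 10 ng/mL of each of the cytokines IL-4 and IL-13, which drive macrophages to the M2 state. Nothing in the sources used here says whether replicates came from separate mice or cultures, so p-values measure the spread between these libraries.

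Splicing removes introns from nascent RNA and is carried out by the spliceosome. Its small nuclear ribonucleoproteins each carry an RNA, a ring of Sm proteins and specific proteins, and the U2 particle with SF3A and SF3B recognises the branch point. SR proteins (the SRSF family) mostly bind exons and help to define them, whereas hnRNPs coat nascent RNA and often repress the use of a splice site, besides acting in RNA export, stability and translation. Many SR protein and hnRNP genes adjust their own mRNA through unproductive exons that send it to nonsense-mediated decay. The values here are sums over all transcripts of a gene, so they do not separate productive from unproductive forms, and they show nothing of which exons were used.

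Total counts were 60702163 to 69450411 in NP libraries and 41974957 to 56265590 in PBS libraries, and 3 counts, the limit that a count of 0 allows, equalled 0.0432 to 0.0715 CPM (counts scaled to a library total of 1e6). Of 14478 genes with enough counts to test, 5964 (41.2%) differed between NP and PBS at an adjusted p under 0.05 in limma voom, 2872 higher and 3092 lower in NP (1975 lower without NP 3, and 1197 higher and 1775 lower with PBS 1 alone as the control). A set of 44 cell-cycle genes summed to 1681 to 2314 CPM in NP libraries and 3507 to 3746 CPM in PBS libraries, and 43 of them were lower. The 10 macrophage identity genes summed to 9919 to 11046 CPM in NP libraries and to 12564 to 12972 CPM in PBS libraries. Markers of other cells were low in comparison: megakaryocyte genes reached at most 15.5 CPM, dendritic cell genes 6.22, fibroblast genes 4.62, lymphocyte genes 1.86, neutrophil genes 1.14, erythroid genes 0.255 and mast cell genes 0.0476. Lymphocyte genes stood at 0.0824 to 0.131 CPM in NP libraries and 0.124 to 1.86 CPM in PBS libraries. Of the neutrophil genes, Ly6g, Camp and Retnlg were at 0 throughout. Olfactory and vomeronasal receptor genes, which macrophages are not known for, summed to 9.70 to 11.9 CPM in the NP libraries and to 12.5, 138 and 153 CPM in PBS 1, PBS 2 and PBS 3. The part of these companions in the changes described here was not tested. In bulk samples, fewer cells of a type and less RNA per cell cannot be told apart.

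The promoters of 4 members are shown first because each carries a motif found in most genes of its family with a promoter window. Hnrnpa2b1, Srsf2 and Srsf7 were also among the members that changed. The sequences are from RefSeq on GRCm38.p6, 5′ to 3′ on the strand of the gene, with the motif matches of both strands in capitals and stretches that overlap an annotated untranslated region left out. The motifs searched were the CCAAT box (CCAAT), the GC box (GGGCGG), the ETS motif (CCGGAAG) and the NRF1 motif (GCGCATGCG, labelled half-site below). Also searched were the E-box (CACGTG, the same on both strands) and the TATA box (TATAAA).
Hnrnpa2b1, chr6:51469895-51470144, minus strand, a CCAAT box read on the opposite strand: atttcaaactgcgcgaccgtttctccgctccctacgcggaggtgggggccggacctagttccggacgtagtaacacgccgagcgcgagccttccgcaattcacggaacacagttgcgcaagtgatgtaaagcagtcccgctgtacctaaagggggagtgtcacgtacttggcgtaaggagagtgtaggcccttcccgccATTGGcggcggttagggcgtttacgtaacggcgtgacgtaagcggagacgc
Srsf2, chr11:116853095-116853344, minus strand, GC boxes, a CCAAT box and a TATA box: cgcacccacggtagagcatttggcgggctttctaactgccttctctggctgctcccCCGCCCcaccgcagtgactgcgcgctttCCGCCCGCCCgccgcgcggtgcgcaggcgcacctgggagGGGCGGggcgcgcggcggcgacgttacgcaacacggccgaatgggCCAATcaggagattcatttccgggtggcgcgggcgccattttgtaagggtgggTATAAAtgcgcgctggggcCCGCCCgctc
Srsf7, chr17:80207308-80207459, minus strand, GC boxes and an NRF1 half-site: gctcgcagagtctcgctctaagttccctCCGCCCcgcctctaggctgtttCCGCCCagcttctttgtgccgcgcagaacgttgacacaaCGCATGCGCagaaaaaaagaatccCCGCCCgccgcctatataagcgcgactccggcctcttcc
Sf3b2, chr19:5295456-5295705, minus strand, a CCAAT box and an ETS motif: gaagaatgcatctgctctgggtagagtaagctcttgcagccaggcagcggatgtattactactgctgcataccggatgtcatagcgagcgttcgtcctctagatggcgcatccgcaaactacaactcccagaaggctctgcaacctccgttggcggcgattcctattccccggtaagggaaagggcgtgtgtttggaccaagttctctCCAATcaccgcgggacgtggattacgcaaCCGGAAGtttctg

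RefSeq windows of the 250 bases before the start site existed for 47 of the 55 members. Some genes had several windows, and a gene was counted if any of its windows held the motif. The families differed in what those windows held. A CCAAT box stood in 14 of 19 hnRNP genes (73.7%), 3 of 11 SRSF genes, 2 of 7 SF3 genes and 4 of 10 SNRP genes, against 40.8% of the 10316 tested genes with a window. A GC box stood in 10 of 11 SRSF genes (90.9%), 14 of 19 hnRNP, 4 of 7 SF3 and 5 of 10 SNRP genes, against 62.7% of tested genes. The ETS motif, which is bound by the factors of that name, stood in 6 of 7 SF3 genes (85.7%), 4 of 11 SRSF, 3 of 10 SNRP and 2 of 19 hnRNP genes, against 15.8% of tested genes. The remaining motifs were rarer among the members, with a TATA box in 7 of 47 (14.9%), an E-box in 4 (8.51%) and an NRF1 half-site in 3 (6.38%), against 7.93%, 10.0% and 3.45% of tested genes. These are matches of letters in a window and no measure of binding. Among members called lower, 11 of 13 with a window held a GC box and 8 of 13 a CCAAT box, and among those called higher 4 of 5 and 1 of 5.

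Splicing factor genes changed little and mostly downward. Of the 51 members with enough counts, 6 rose and 16 fell in NP libraries, which makes 43.1% called. That share was near the 41.2% of all genes and under the 53.3% of the 7306 genes at 20 CPM or more, where most members lie. In direction the members differed more from all genes: 31.4% of members fell against 21.4% of all genes, and 11.8% rose against 19.8%. Among the genes at 20 CPM or more, 28.3% rose and 25.1% fell. The median log2 fold change (NP minus PBS) was -0.08 over the members and -0.003 over all genes tested. Below 0 lay 38 of the 51 members (74.5%), against 50.7% of all genes and 46.0% of those at 20 CPM or more. No member changed by 2-fold, and the called changes ran from a log2 fold change of -0.30 (Snrpb2) to 0.33 (Srsf11). The groups did not overlap for 29 members (56.9%), with NP above in 9 and below in 20, against 53.3% of all genes, 26.5% above and 26.8% below. Among genes at 20 CPM or more the share without overlap was 64.9%. The members are abundant genes, with a median PBS level of 137 CPM against 20.5 CPM over all tested genes, and their values were precise, with a median standard error of 0.036 against 0.059 on the log2 scale. Exonic bases were shared with another gene by 23 members, and for 9 of them the other gene had at least 5% of the member's counts. Besides Srsf2, Sf3a2 and Hnrnph3, described below, and Snrpn with its single count, these were Sf3b3 with Cog4 (35.5%), Snrpd3 with Gucd1 (36.8%), Snrpa with BC024978 (12.9%), Hnrnpk with Rmi1 (6.84%) and Hnrnpm with Marchf2 (6.36%), and the 5 members were not called.

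**Figure D1:**
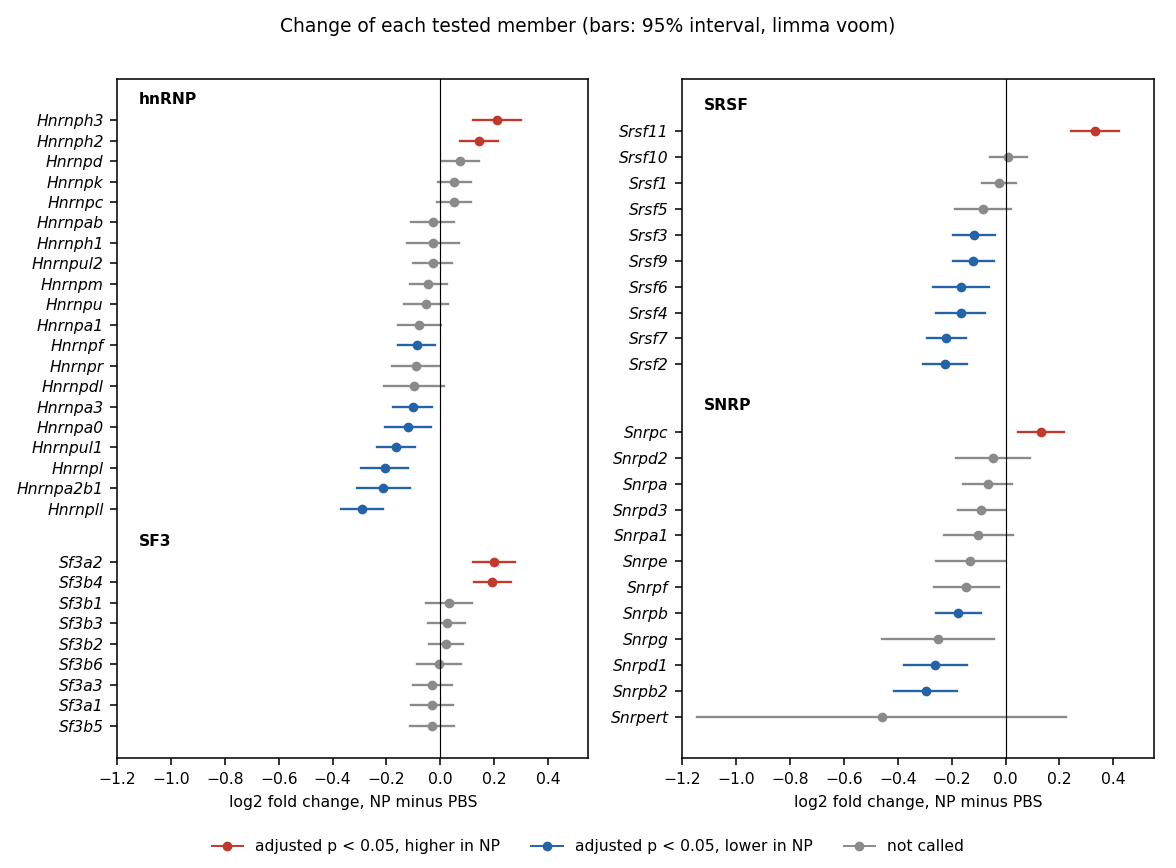
Log2 fold change (NP minus PBS, x axis) of each of the 51 tested members with its 95% interval, ordered within its family, red for an adjusted p under 0.05 and higher in NP, blue for lower, grey for not called. Srsf11 lies farthest to the right at 0.33, most hnRNP, SRSF and SNRP genes lie left of 0, and the SF3 genes other than Sf3a2 and Sf3b4 sit around 0.

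How many members fell depended on single libraries, as it did over all genes. Of the genes of the main test, 2243 of 14467 were lower without NP 1 and 1975 of 14459 without NP 3. With all libraries 3092 of 14478 were lower. Without NP 1 the count of lower members was 10 and the median over the tested members -0.03, without NP 3 the count was 9, and with PBS 1 alone as the control, leaving out both libraries with raised olfactory receptor counts, 2 members rose and 6 fell. Hnrnpll, Hnrnpa2b1, Srsf2 and Srsf7 among the lower members and Srsf11 and Sf3b4 among the higher ones kept their call in all 15 alternatives tried, and no called member changed direction in any of them. With PBS 1 alone as the control the calls left were those 6 and the lower Hnrnpa0 and Srsf9. With no low-count filter the calls of Hnrnpa0, Hnrnpa3, Srsf3, Srsf4, Srsf6, Srsf9 and Snrpc were lost (limma voom, adjusted p = 0.0552 to 0.137), and limma-trend lost that of Hnrnpf (0.0501). Among the NP libraries, NP 2 lay closest to PBS in 14 of the 16 lower members (87.5%), as it did in 69.6% of all lower genes. The median difference of those 16 members from the PBS mean was -0.23 in NP 1, -0.12 in NP 2 and -0.19 in NP 3 on the log2 scale.

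**Figure D2:**
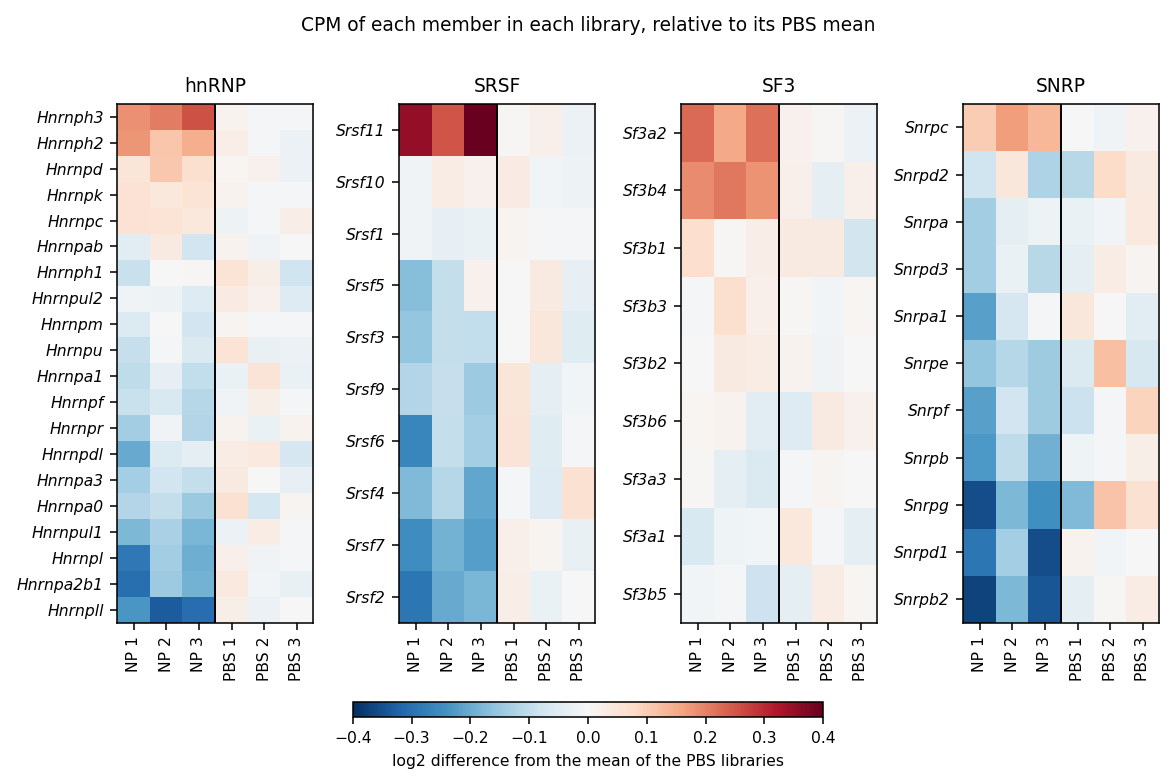
CPM of each tested member in each library as the log2 difference from the mean of its 3 PBS libraries, by family, NP libraries left of PBS libraries, red above and blue below, with colours saturating at 0.4 in either direction. Snrpert, at under 1 CPM, is left out. The blue blocks at the foot of the hnRNP, SRSF and SNRP panels are mostly palest in NP 2, with Hnrnpll among the exceptions, and the SF3 panel is close to white below Sf3b4.

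The 4 families were not alike in their median changes. Their calls stand against 21.4% of all genes lower and 19.8% higher, and 25.1% and 28.3% of genes at 20 CPM or more. The SRSF family had 6 of 10 tested genes lower (60%) and 1 higher, with a median log2 fold change of -0.12. Of the hnRNP genes 7 of 20 were lower (35%) and 2 higher (median -0.07). Of the SNRP genes 3 of 12 were lower (25%, near the background) and 1 higher (median -0.14). In the SF3 family none of 9 was lower and 2 were higher (22.2%, near the background), with a median of 0.02. That median became -0.01 when libraries were scaled by their totals alone, a scaling that moved the median over all genes to -0.04. At an unadjusted p under 0.05, and by limma-trend, the count of lower SF3 genes was also 0. With scaling by library totals the SNRP calls were 0 higher and 6 lower, and those of all 14478 genes 2280 higher and 3653 lower. The count of lower SRSF genes was 3 without NP 1, 2 without NP 3 and 3 without PBS 1, that of lower hnRNP genes was 4 when each of these 3 libraries in turn was left out, and that of lower SNRP genes was 5 without PBS 1. Over all genes of the main test the lower counts were 2243, 1975 and 2533 without NP 1, NP 3 and PBS 1. The hnRNP median was -0.03 without NP 1, and the SF3 median ran from 0.006 without PBS 3 to 0.04 without PBS 1. With PBS 1 alone as the control, no hnRNP or SNRP gene was higher and 1 SF3 gene was, while 3 hnRNP, 3 SRSF and no SNRP genes were lower. Genes of a family are not replicates and share the same libraries, so no test of one family against another was made.

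Summed over its members, the hnRNP family held 7833, 8134 and 7915 CPM in NP libraries and 8451, 8317 and 8212 CPM in PBS libraries. The mean sums were 7961 ± 156 CPM in NP and 8327 ± 120 CPM in PBS (SD, n = 3 each), a decrease of 4.39%. SRSF genes summed to 1486 ± 39.8 CPM in NP libraries and 1554 ± 18.6 CPM in PBS libraries and decreased by 4.42%. SNRP genes summed to 501 ± 22.2 CPM in NP libraries and 551 ± 9.73 CPM in PBS libraries and decreased by 9.07%. In all 3 families every NP library lay below every PBS library. SF3 genes summed to 1241 ± 3.42 CPM in NP and 1208 ± 14.96 CPM in PBS, where every NP library lay above every PBS library. That separation depended on the scaling: with library totals alone the groups overlapped, at 1227 ± 7.88 CPM in NP libraries and 1222 ± 20.7 CPM in PBS libraries. With the same scaling the hnRNP sum decreased by 6.64%, the SRSF sum by 6.66% and the SNRP sum by 11.2%, still without overlap. With 3 against 3 libraries an exact two-sided permutation test cannot go below p = 0.10, so no p is given for these sums.

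**Figure D3:**
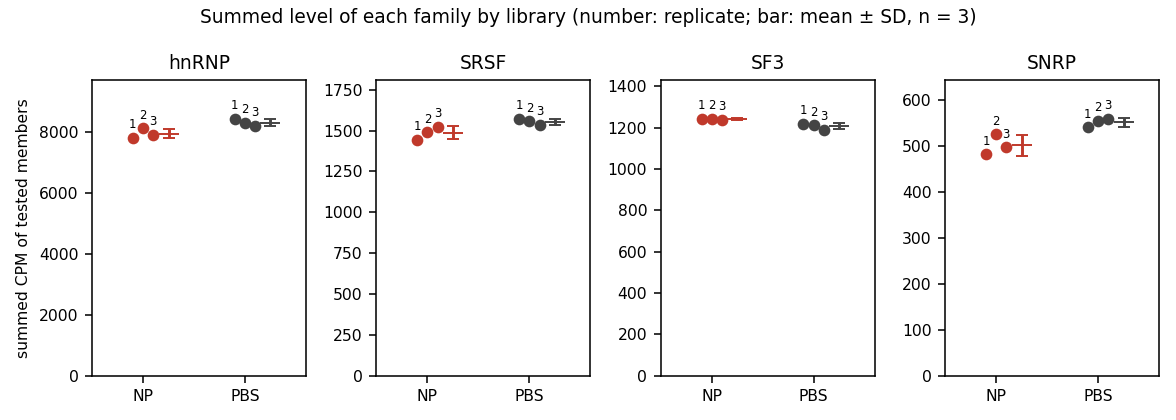
Summed CPM of the tested members of each family in each library (y axis from 0), NP in red left of PBS in grey, points numbered by replicate, with the mean ± SD of 3 libraries at their right. The hnRNP, SRSF and SNRP sums are a little lower in NP than in PBS and the SF3 sum is a little higher. Scaled by library totals alone, the SF3 groups overlap.

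**Figure D4:**
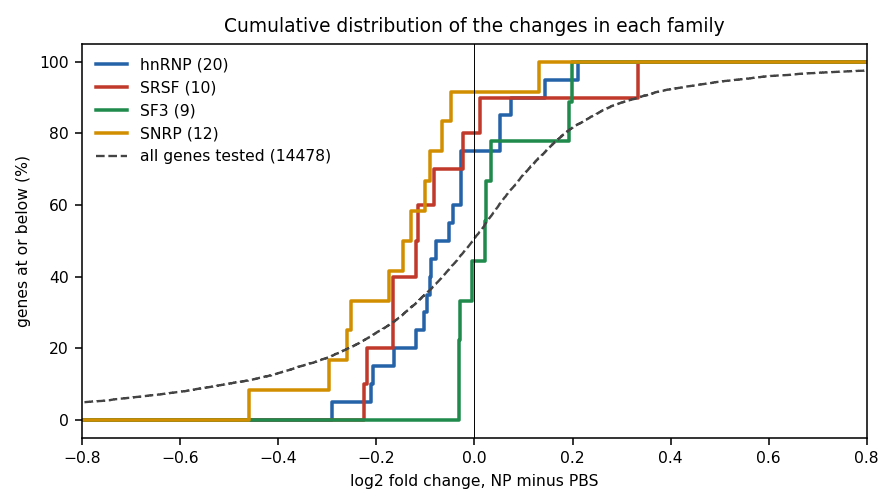
Cumulative share of genes (y axis, %) at or below a log2 fold change (NP minus PBS, x axis), for the tested genes of each family and for all 14478 genes tested (dashed). The SNRP, SRSF and hnRNP curves cross 50% left of 0 and the SF3 curve right of it, and all 4 are steeper than the curve of all genes.

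The hnRNP genes include the most highly expressed members. Per kilobase of exonic length, the highest PBS levels among the members were those of Hnrnpf (248 CPM per kb), Hnrnpab (225), Hnrnpa3 (173), Hnrnpa1 (135) and Hnrnpa2b1 (123), and in NP libraries the same 5 genes stood at 233, 221, 161, 128 and 106 CPM per kb. At the other end were Snrpert (1.76 in NP and 2.43 in PBS), Snrpc (4.79 in NP and 4.37 in PBS) and Hnrnpr (4.32 in NP and 4.6 in PBS). Exonic length here joins all annotated exons of a gene, 22199 bases for Hnrnpr and 6521 for Snrpc, so this order depends on the annotation. Before division by length, Hnrnpr had 102 CPM and Snrpc 28.5 CPM in PBS, against 7.70 CPM for Snrpg. The mouse genes of the A/B type encode proteins with a pair of RNA recognition motifs that bind nascent RNA. Of these 7 genes 6 lay below 0, against 50.7% of all genes. Of the 7, 3 were called lower (42.9%, against 21.4% of all genes and 25.1% of those at 20 CPM or more). That count was 1 to 2 when any single library was left out, where 1975 to 2741 of all genes of the main test were lower.

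Hnrnpa2b1 (chr6:51460932-51469894, minus strand), whose protein takes part in RNA sorting and transport besides splicing, had 654, 730 and 708 CPM in NP libraries, against 830, 800 and 791 CPM in PBS libraries. The groups did not overlap, and NP 1 was the lowest. The log2 fold change was -0.21 with an SE of 0.04 (limma voom, adjusted p = 0.00391). Hnrnpa1 (chr15:103240432-103246692, plus strand), the classical exon silencer of the family, had 397, 417 and 398 CPM in NP and 418, 442 and 419 CPM in PBS. Its groups did not overlap either, but only narrowly, and the change of -0.08 with a 95% interval of -0.16 to 0.002 was not called (limma voom, adjusted p = 0.11). With scaling by library totals Hnrnpa1 was called lower (0.0344). How many of its reads also match its pseudogenes was not measured, so its value may be uncertain. The 2 pseudogenes in the table were too low to test: Hnrnpa1l2-ps2 had 5, 4 and 5 counts in NP and 1, 2 and 2 counts in PBS, and Hnrnpa1l2-ps 1 count in all.

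The other A/B-type genes changed less than Hnrnpa2b1. Hnrnpa0 and Hnrnpa3 fell by 0.12 and 0.10 on the log2 scale (limma voom, adjusted p = 0.0312 and 0.0300). The call of Hnrnpa0 was lost without any single library other than PBS 2, and that of Hnrnpa3 without NP 1, NP 3, PBS 1 or PBS 2. The adjusted p was highest without PBS 1, at 0.188 for Hnrnpa0 and 0.167 for Hnrnpa3. Hnrnpab, Hnrnpd and Hnrnpdl encode AU-rich element binding proteins, and Hnrnpd (AUF1), which controls the decay of cytokine mRNAs, had a value of 0.07 with an interval of 0.01 to 0.14. That was not called with all libraries (limma voom, adjusted p = 0.0780) and was called without NP 1 (0.0428). Hnrnpdl lay at -0.10 and Hnrnpab at -0.03, neither called, although Hnrnpd and Hnrnpdl are neighbours on chromosome 5 with 54.6 kb and no tested gene between them.

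The L-type pair fell. Hnrnpll (chr17:80029487-80062334, minus strand), which in lymphocytes directs the change of CD45 isoforms, had 103, 96.2 and 98.2 CPM in NP libraries, against 123, 119 and 121 CPM in PBS libraries. Its decrease was the largest among called hnRNP genes, -0.29 with an SE of 0.03 (limma voom, adjusted p = 0.000223), and all NP libraries stood well apart from all PBS libraries. Hnrnpl (chr7:28808541-28822266, plus strand), a binder of CA-rich RNA that acts on the same CD45 exons, had 197, 217 and 209 CPM in NP and 243, 237 and 239 CPM in PBS, a change of -0.21 with an SE of 0.04 (limma voom, adjusted p = 0.00257). With PBS 1 alone as the control the adjusted p of Hnrnpl was 0.0522. Hnrnpm, which encodes another regulator of exon inclusion, lay at -0.04 and was not called (limma voom, adjusted p = 0.280).

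Within the F/H type, which binds runs of G, the genes went in opposite directions. Hnrnph3 (chr10:63014664-63024217, minus strand) had 28.51, 28.92 and 29.95 CPM in NP libraries, against 25.37, 24.97 and 25.01 CPM in PBS libraries, a rise of 0.21 with an SE of 0.04 (limma voom, adjusted p = 0.00232). Hnrnph2 (chrX:134601179-134607060, plus strand) had 294, 281 and 288 CPM in NP and 265, 260 and 256 CPM in PBS, a rise of 0.14 with an SE of 0.03 (limma voom, adjusted p = 0.00516). Both calls were lost with PBS 1 alone as the control (adjusted p = 0.0835 for Hnrnph3 and 0.150 for Hnrnph2). Hnrnph3 shares 115 exonic bases with Rufy2 on the opposite strand, a gene with 121% of its counts and a change of 0.09 that was not called (adjusted p = 0.103), and since the strand setting of the counting is not given in the sources used here, part of the Hnrnph3 count may be reads of Rufy2. Hnrnpf fell by 0.09 (limma voom, adjusted p = 0.0415). That call was lost on leaving out NP 1, NP 3 or any PBS library, with an adjusted p of up to 0.187 without NP 3. Hnrnph1, the closest relative of Hnrnph2, lay at -0.03 and was not called (limma voom, adjusted p = 0.642).

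The abundant hnRNPs K, C and U stood near their PBS level. Hnrnpk (chr13:58391142-58403343, minus strand), a KH domain protein that binds C-rich RNA and DNA, had 643, 636 and 641 CPM in NP libraries, against 623, 614 and 616 CPM in PBS libraries. All NP values were above all PBS values, but the change of 0.05 with an interval of -0.01 to 0.11 was not called (limma voom, adjusted p = 0.164). Hnrnpu (chr1:178321108-178337797, minus strand), the scaffold attachment factor, had 955, 1014 and 979 CPM in NP, against 1058, 999 and 1002 CPM in PBS, so its groups overlapped. Its value of -0.05 had an interval of -0.13 to 0.03 (limma voom, adjusted p = 0.281). Its relative Hnrnpul1 fell by 0.16 (limma voom, adjusted p = 0.00250), with 266, 276 and 266 CPM in NP, against 297, 308 and 300 CPM in PBS, and was not called with PBS 1 alone as the control (adjusted p = 0.0786). Hnrnpul2, Hnrnpc and Hnrnpr lay at -0.03, 0.05 and -0.09 and were not called. Hnrnpr was called lower without NP 2 (limma voom, adjusted p = 0.0199) and with scaling by library totals (0.0281).

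All 8 genes of the canonical SR set, Srsf1 to Srsf7 and Srsf9, lay below 0, against 50.7% of all genes. Of the 8, 6 were called lower (75%, against 21.4% of all genes and 25.1% of those at 20 CPM or more). That count was 3 without NP 1, 2 without NP 3 and 3 without PBS 1, where fewer of all genes were lower as well. Srsf2 (SC35, chr11:116849901-116853094, minus strand), a marker of nuclear speckles that also acts in transcription elongation, had 163, 173 and 176 CPM in NP libraries, against 203, 195 and 199 CPM in PBS libraries. Every NP library lay below every PBS library, and the change was -0.22 with an SE of 0.04 (limma voom, adjusted p = 0.00102). Srsf2 shares 288 exonic bases on the opposite strand with Mfsd11, which had 53.9% of its counts and a change of -0.003. Srsf7 (chr17:80200080-80207307, minus strand), the zinc knuckle SR protein that couples splicing to mRNA export, had 65.6, 68.5 and 67.0 CPM in NP and 79.1, 78.7 and 76.4 CPM in PBS, a change of -0.22 with an SE of 0.03 (limma voom, adjusted p = 0.000657). Srsf7 and Hnrnpll, both lower, are neighbours on chromosome 17, with 137.7 kb and 1 tested gene, not called, between them.

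Srsf4 (SRp75, chr4:131873617-131901706, plus strand) had 49.4, 51.5 and 48.3 CPM in NP libraries, against 55.5, 53.8 and 58.1 CPM in PBS libraries, a change of -0.17 with an SE of 0.04 (limma voom, adjusted p = 0.00927) that was not called without NP 3 (0.0723). Srsf6, its close relative, fell by 0.17 as well (limma voom, adjusted p = 0.0183) and was not called without NP 1, NP 3, PBS 1 or PBS 3, where the adjusted p reached 0.109. Srsf3 (SRp20, chr17:29032628-29043373, plus strand), the smallest SR protein and a factor in mRNA export, had 159, 165 and 165 CPM in NP and 177, 182 and 171 CPM in PBS. The groups did not overlap, and the change of -0.12 (SE 0.03) was called with all libraries (limma voom, adjusted p = 0.0244) but not without any one of NP 1, NP 2, NP 3, PBS 1 and PBS 2, with an adjusted p of up to 0.11. Srsf9 fell by 0.12 (limma voom, adjusted p = 0.0192) and was not called without NP 1, NP 3 or PBS 1, where the adjusted p reached 0.123.

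The other SR genes did not pass. Srsf1 (ASF/SF2, chr11:88047373-88053755, plus strand), the best known SR protein, had 185, 183 and 184 CPM in NP libraries, against 189, 187 and 186 CPM in PBS libraries. Every NP value was below every PBS value, yet the difference was -0.02 with an interval of -0.09 to 0.04 (limma voom, adjusted p = 0.517). Srsf5 (SRp40, chr12:80945504-80950507, plus strand), the SR gene with the highest level per kilobase, had 312, 329 and 356 CPM in NP and 351, 360 and 344 CPM in PBS. NP 3 lay among the PBS libraries and NP 1 lay lowest, and the change of -0.08 with an interval of -0.19 to 0.02 was not called (limma voom, adjusted p = 0.184).

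Srsf11 (SRp54, chr3:158010473-158036639, minus strand), a speckle protein outside the canonical SR set, was the member that rose most. It had 175, 163 and 180 CPM in NP libraries, against 137, 139 and 135 CPM in PBS libraries. Every NP library lay above every PBS library, with NP 2 nearest to them. The change was 0.33 with an SE of 0.04 (limma voom, adjusted p = 0.000212), an increase of 25.9% with a 95% interval of 0.24 to 0.42 on the log2 scale. Its neighbour in the grouping, Srsf10, a splicing repressor when dephosphorylated, lay at 0.01 and was not called (limma voom, adjusted p = 0.811). Srsf12 had 0 counts in all 6 libraries, under the limit that a count of 0 allows.

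The SF3 subunits bind around the branch point within the U2 particle. Most stayed close to their PBS level: 7 of the 9 lay between -0.03 and 0.03 and were not called. Sf3b1 (chr1:54985169-55027481, minus strand), the largest subunit and the target of the drugs that block branch point recognition, had 356, 341 and 346 CPM in NP libraries, against 348, 348 and 323 CPM in PBS libraries. Its groups overlapped, and the value of 0.03 had an interval of -0.05 to 0.12 (limma voom, adjusted p = 0.514). Sf3b2, whose promoter is printed above for its ETS motif, had 331, 340 and 339 CPM in NP and 335, 329 and 332 CPM in PBS, which also overlapped.

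Sf3b4 (chr3:96172332-96177564, plus strand), which contacts the RNA upstream of the branch point, and Sf3a2 rose. Sf3b4 had 123, 125 and 122 CPM in NP libraries, against 109, 105 and 109 CPM in PBS libraries, a change of 0.19 with an SE of 0.03 (limma voom, adjusted p = 0.000999). Sf3a2 (chr10:80798198-80804924, plus strand), the zinc finger subunit of SF3A, had 61.8, 58.6 and 61.5 CPM in NP and 53.4, 53.0 and 52.0 CPM in PBS, a change of 0.20 with an SE of 0.03 (limma voom, adjusted p = 0.00161). In neither gene did the groups overlap. Sf3a2 shares 429 exonic bases with Plekhj1 on the opposite strand, which had 64.3% of its counts and itself rose by 0.25 (limma voom, adjusted p = 0.000812). Without a strand setting, the rise of Sf3a2 cannot be told apart from that of Plekhj1. With PBS 1 alone as the control the adjusted p of Sf3a2 was 0.0648.

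The Sm core proteins form the ring on the spliceosomal RNAs, and all 7 tested genes of this group lay below 0, against 50.7% of all genes. Of the 7, 2 were called lower (28.6%, against 21.4% of all genes and 25.1% of those at 20 CPM or more). Without PBS 1, 4 of the 7 were called lower. With scaling by library totals alone 5 were, where 3653 of all 14478 genes were lower. Snrpb (chr2:130171414-130179403, minus strand), which encodes SmB, had 127, 138 and 130 CPM in NP libraries, against 147, 148 and 151 CPM in PBS libraries, a change of -0.18 with an SE of 0.04 (limma voom, adjusted p = 0.00502). Snrpd1 (SmD1, on chromosome 18) had 50.2, 55.9 and 48.0 CPM in NP and 61.9, 61.0 and 61.3 CPM in PBS, a change of -0.26 with an SE of 0.05 (limma voom, adjusted p = 0.00339). In both genes NP 2 was the NP library nearest to PBS, and both calls were lost with PBS 1 alone as the control (adjusted p = 0.111 for Snrpb and 0.0624 for Snrpd1). Snrpg and Snrpf lay at -0.25 and -0.15, just outside the threshold (limma voom, adjusted p = 0.0551 and 0.0541), and were called lower without PBS 1 (0.0154 and 0.0393). Snrpd3, at -0.09, was called lower without NP 2 (limma voom, adjusted p = 0.0355), and Snrpe and Snrpd2 lay at -0.13 and -0.05 and were not called. Snrpert, a processed pseudogene named for its relation to Snrpe, was measured at 0.315 to 0.645 CPM in NP libraries and 0.545 to 0.891 CPM in PBS libraries. The interval of its change ran from -1.14 to 0.22.

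Snrpn (SmN), the imprinted homologue of Snrpb that is known from neurons, had 1 count in 1 NP library and 0 in the other 5, so it could not be tested. The specific proteins of U1 and U2 differed. Snrpb2 (chr2:143063039-143072853, plus strand), which binds the U2 RNA, had 34.3, 39.2 and 35.0 CPM in NP libraries, against 43.3, 44.5 and 45.3 CPM in PBS libraries. That change of -0.30 with an SE of 0.05 was the largest decrease among called members (limma voom, adjusted p = 0.00166), and with PBS 1 alone as the control its adjusted p was 0.0652. Its partner Snrpa1 lay at -0.10 and was not called (limma voom, adjusted p = 0.189). Snrpc (chr17:27838150-27851968, plus strand), which steadies the pairing of U1 with the splice donor, had 30.6, 32.0 and 31.3 CPM in NP, against 28.5, 28.2 and 28.8 CPM in PBS, a rise of 0.13 with an SE of 0.04 (limma voom, adjusted p = 0.0194). That call was lost in 5 of the 15 alternatives, among them leaving out PBS 2 (adjusted p = 0.068), scaling by library totals (0.0701) and PBS 1 alone as the control, where the adjusted p was highest (0.187). Snrpa, which binds the U1 RNA, lay at -0.07 and was not called (limma voom, adjusted p = 0.218).

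Other splicing genes were taken in 9 lists. Of 177 tested genes 40 were higher (22.6%, against 19.8% of all genes and 28.3% of those at 20 CPM or more). Lower were 26 (14.7%, against 21.4% and 25.1%), and the median was 0.02. Scaling by library totals gave 27 higher and 36 lower and a median of -0.01. Of all 14478 genes, that scaling gave 2280 higher and 3653 lower. Without NP 1 the count of lower genes was 12, against 2243 over all genes, and without NP 3 it was 14, against 1975. With PBS 1 alone as the control the median was 0.0045. Against 19.8% of all genes that rose, 6 of 12 genes of the SMN complex and Sm assembly rose (median 0.12), among them Smn1, whose protein loads Sm proteins onto the RNAs, by 0.27 (limma voom, adjusted p = 0.000979) with 29.1, 28.0 and 28.6 CPM in NP, against 22.8, 24.4 and 24.2 CPM in PBS, and Strap by 0.14. None of the 12 fell in limma voom or limma-trend (1 did at an unadjusted p under 0.05, and with scaling by library totals 5 rose and 1 fell), while the Sm core genes that this complex assembles lay below 0. By contrast 5 of 11 LSm ring genes fell and none rose, also at an unadjusted p under 0.05 or by limma-trend (median -0.08), among them Lsm2 by 0.36 and Lsm4 by 0.18, and 3 fell without NP 1 or without NP 3. Single libraries left out gave 4 to 6 higher genes of the SMN list, with 4 without NP 3 or PBS 2. With PBS 1 alone as the control fewer genes were called in each list, as over all genes. The medians were then 0.11 for the SMN list, -0.10 for the LSm list and 0.07 for the U4/U6 list. They were 0.01 for the SR-related list, -0.05 for other regulators, 0.06 for the exon junction list and 0.05 for the Prp19 list. The median over all genes was -0.008 in that setting.

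The shares below stand against 19.8% of all genes higher and 21.4% lower, and against 28.3% and 25.1% of genes at 20 CPM or more. With scaling by library totals 2280 of all 14478 genes were higher and 3653 lower. Of the U4/U6 and tri-snRNP list 6 of 12 genes rose and 1 fell (median 0.10), with Prpf3 at 0.16, Sart1 at 0.12 and Ppih, a cyclophilin, at -0.25. Leaving out single libraries gave 4 to 6 higher (4 without NP 3 or PBS 3) and 0 lower without NP 1, NP 3, PBS 1 or PBS 3, and scaling by library totals gave 2 higher and 1 lower. In the Prp19 complex and catalytic step list 7 of 27 rose (25.9%, near the background) and 1 fell (median 0.05), with Cwc27 at 0.23, the helicase gene Dhx8 at 0.17 and Prpf18 at -0.10, where single libraries left out gave 4 (without PBS 3) to 9 (without NP 2) higher and 0 lower without NP 3 or any PBS library (2 without NP 2), and that scaling gave 4 higher and 3 lower. Other U1, U2 and U5 protein genes had 3 of 20 higher and 2 lower (median 0.03, or -0.01 with library totals), with Txnl4a at 0.28, Luc7l at 0.21, Luc7l3 at -0.18 and Snrnp40 at -0.16, and the lower calls were 0 without NP 1 or NP 3 and 1 without any other single library. Minor spliceosome genes had 2 of 9 higher and 1 lower (median 0.03, or -0.01 with library totals, where 1 was higher and 2 lower, and 1 higher without any single library other than NP 2 and 0 lower without NP 1, NP 3, PBS 1 or PBS 3), with Zrsr1 at 0.53 (34.5 ± 0.257 CPM in NP libraries and 24.2 ± 2.76 CPM in PBS libraries, SD, n = 3 each), Zrsr2 at 0.10 and Pdcd7 at -0.13.

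SR-related proteins and SR kinases had 7 of 27 higher (25.9%) and 4 lower (median 0.02, or -0.01 with library totals, where 4 were higher and 5 lower, and 4 higher without NP 3 or PBS 3, 1 lower without NP 1 and 2 lower without NP 2, NP 3, PBS 1 or PBS 2), with Scaf8 at 0.23, Rnps1 at 0.20, Rsrp1 at -0.40 and Thrap3 at -0.11. In the exon junction complex list 5 of 13 rose and none fell, also at an unadjusted p under 0.05 or by limma-trend (median 0.06), and the 2 with the smallest p were Smg1 at 0.22 and Smg5 at 0.17, which act in nonsense-mediated decay and are not part of the complex itself. Among 46 other regulators of alternative splicing 4 rose (8.70%) and 12 fell (26.1%, median -0.04), and 7 fell without NP 1. Mbnl3, a muscleblind protein, had 1.21, 1.26 and 0.976 CPM in NP libraries and 3.06, 2.63 and 2.55 CPM in PBS libraries, a fall of 1.26 on the log2 scale with an SE of 0.15 (limma voom, adjusted p = 0.000218). Celf2 had 103 ± 4.40 CPM in NP and 138 ± 4.04 CPM in PBS (SD, n = 3 each), a fall of 0.43 (limma voom, adjusted p = 5.19e-05). The pyrimidine tract binding protein gene Ptbp1, an exon repressor also known as hnRNP I, rose by 0.15, and Fubp1 rose by 0.15. Called changes larger in size than that of Srsf11, the largest called change among the members, were those of Mbnl3, Zrsr1, Celf2, Rsrp1 and Lsm2, and of Mbnl1 (-0.39) and Lsm5 (-0.34), both named for this comparison after their values were seen.

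**Figure D5:**
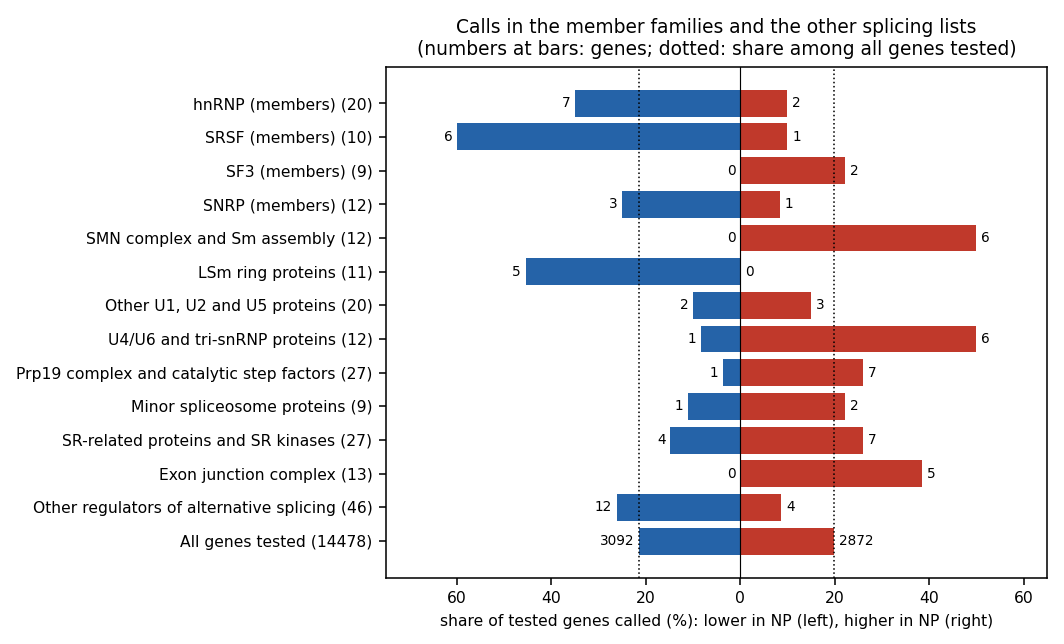
Share of tested genes (x axis, %) called lower in NP (left, blue) and higher in NP (right, red) in the 4 member families, in the 9 other splicing lists and over all genes tested, with the number of genes at each bar and tested genes in brackets. Dotted lines mark the shares over all genes, 21.4% lower and 19.8% higher. The SRSF and LSm bars reach farthest to the left and the SMN and U4/U6 bars farthest to the right.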

How the data were processed

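One table was deposited by the authors, with an expected count per gene in each of the 6 libraries and no scaling for depth. All values were whole, so any rounding was in the deposited table. Per the submitters' processing notes, the tools were RSEM 1.3.3, STAR 2.7.8a, cutadapt 2.3, MultiQC 1.7 and FastQC 0.11.8, their roles unstated, and the genome was GRCm38. Which annotation was used, and whether counting used strand, is not given in the sources used here. RSEM shares out reads that match several genes, so Hnrnpa1 and other genes with near-identical copies may carry uncertain values. Quoted names with spaces kept the unit of the table from being checked automatically, so a count model was not used, and limma voom, the fallback named for that case, was the main test (limma 3.58.1, R 4.3.3). Of 55491 rows, 4 reporter constructs with 0 counts were left out. GENCODE M21 supplied each gene's type, exonic length and position on GRCm38, matched by identifier for 55227 of 55487 gene rows.

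Genes entered the test with at least 10 counts at the median depth (0.171 CPM) in 3 libraries and 15 counts in total. Libraries were scaled by TMM factors (0.979 to 1.02), the group was the only model term (4 residual degrees of freedom), and p-values were adjusted by Benjamini-Hochberg over 14478 genes with a threshold of 0.05. The fit was also run on simulated counts with a fixed dispersion and far fewer changed genes than were called here. That run therefore gives no error rate for these data. CPM of single genes and of the family sums are counts scaled to 1e6 of the TMM-scaled library, unless library totals are named. The summed cell-cycle, cell marker and olfactory receptor values and the limits drawn from a count of 0 used library totals without TMM factors. Those limits cover counting error only. The members and lists were chosen with earlier results of these data known. Values in every library are given, in each family, for the 3 called members that rose most, the 3 that fell most and a panel of well-known members, and of each other list the 2 genes with the smallest p per direction are named. Hnrnpul1, Sf3b2 and Snrpert were added after their values were seen. The 15 alternatives were 3 other scalings, 2 other filters, limma-trend, sample quality weights, the replicate number as a block, each library left out in turn, and PBS 1 as the single control library.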

Additional observations from a re-analysis of the deposited data

How the results depend on the processing

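Of the called members, 2 of 6 higher (Srsf11, Sf3b4) and 4 of 16 lower (Hnrnpa2b1, Hnrnpll, Srsf2, Srsf7) kept their side of the threshold in all 15 alternatives, and none reversed. The cause of the shifts below was not tested. Where libraries were left out, the number of libraries was smaller as well.

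With PBS 1 alone as the control, where the spread rests on the NP libraries, all genes gave 1197 higher and 1775 lower, members 2 higher and 6 lower, hnRNP genes 0 and 3, SNRP genes 0 and 0, other splicing genes 8 and 7, SRSF genes 3 lower and SF3 genes 1 higher. The SF3 median was then 0.0012, and the log2 values of uncalled Sf3b1 (-0.0083), Sf3b5 (0.0011), Sf3b6 (0.040), Snrpd2 (0.050) and Srsf10 (-0.028) took the other sign. With library totals as the only scaling, all genes gave 2280 higher and 3653 lower, and SNRP genes 0 higher and 6 lower. The medians were then -0.112 over all members, -0.100 for hnRNP, -0.152 for SRSF and -0.014 for SF3. Uncalled Sf3b1 (-0.00076), Sf3b2 (-0.014), Sf3b3 (-0.010) and Srsf10 (-0.024) took the other sign. With no low-count filter 10 members, 2 SRSF genes and 10 other splicing genes were lower, 4 hnRNP and 0 SNRP genes were higher, the SF3 median was 0.040 and uncalled Sf3b6 lay at 0.017. Sample quality weights gave 6 lower SNRP genes.

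Leaving out 1 library gave 1975 to 3850 lower genes in all, 9 to 16 lower members, 4 to 7 lower hnRNP, 2 to 5 lower SRSF, 0 to 1 higher and 3 to 5 lower SNRP and 12 to 20 lower other splicing genes. The filter was applied anew each time, so the genes tested differed. The 3850 lower genes, without PBS 1, were among 16054 tested. Of the 14478 genes of the main test, 2533 were lower without PBS 1 and at most 2741 without any single library. Medians ran from -0.085 to -0.032 over all members, -0.077 to -0.032 for hnRNP, -0.130 to -0.088 for SRSF and 0.0057 to 0.042 for SF3. Values of uncalled members crossed 0: Hnrnpab from -0.048 to 0.0067, Hnrnph1 from -0.066 to 0.016, Hnrnpul2 from -0.052 to 0.0036, Sf3a1 from -0.050 to 0.0075, Sf3b1 from -0.00073 to 0.068, Sf3b5 from -0.036 to 0.0020, Sf3b6 from -0.016 to 0.022 and Srsf10 from -0.00029 to 0.043.

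Whether NP and PBS libraries were paired is not known. Deviations from the group means correlated at -0.09, -0.24 and -0.27 over 9928 genes for same-numbered libraries. For differently numbered libraries they correlated at -0.19 to 0.43, highest for NP 3 with PBS 2. With 3 libraries per group these values cannot show or exclude a pairing. With the replicate block, 4 hnRNP genes were lower, 0 SNRP genes higher and 5 lower, and 15 other splicing genes lower. Depth set the limit for Snrpert, Snrpn, Srsf12 and the 2 hnRNP pseudogenes.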
